A study of Mus musculus with 9 samples.

Results

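The 33 genes described here carry glucose into the cell, break it down to lactate and answer to low oxygen. They were taken by symbol from the 48709 rows of the deposited expression table. The rule names symbols only, but the list was chosen with earlier results of these data known. All 33 were found. Each had a mean of at least 1 TPM (transcripts of a gene per 1000000 transcripts) in some group. All were thus among the 11971 genes tested. Eno2, Bhlhe41 and Car9 reached 1 TPM in 1 group only, so their entry into the test already favoured a difference. By role they comprise 2 glucose transporters, 9 enzymes of upper glycolysis, 2 regulators of phosphofructokinase, 7 enzymes of lower glycolysis, 4 lactate genes, 2 subunits of the hypoxia-inducible factor HIF, 6 HIF target genes outside glycolysis and the cytokine gene Mif.

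Glycolysis splits glucose into pyruvate. Activated CD8+ T cells, killer lymphocytes that recognise foreign peptides, take up much glucose and send much of the pyruvate to lactate even where oxygen is present, while resting and memory cells lean more on mitochondria. HIF, a pair of HIF-1alpha (Hif1a) and its partner Arnt, binds short DNA elements and turns on many glycolysis genes. Its alpha subunit is controlled mostly at the protein level, through hydroxylases that need oxygen and 2-oxoglutarate, so the transcript of Hif1a is not a measure of HIF activity.

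RNA was sequenced from mouse CD8+ T cells in 3 groups of 3 libraries. OVA/Citra cells had ovalbumin (OVA) peptide, a model antigen, together with citraconate, a small dicarboxylate that is an isomer of itaconate. OVA cells had the peptide alone, and CTRL cells had no peptide. The stated aim was to learn what citraconate does to transcription in these cells. No group with citraconate and no peptide is among the samples, and the labels give no dose, time, mouse strain or age. The protocol names "PAS-T cells" in 8 libraries, without defining the term, and for OVA/Citra replicate 1 it names OVA-stimulated T cells. Nothing says whether replicates came from separate mice or cultures, so p-values reflect spread among libraries that may be technical only. In bulk RNA, fewer cells of a type and less RNA per cell cannot be told apart.

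Between 14754470 and 17384330 reads per library were assigned to genes. Markers of T cells were high throughout, with the 12 genes summing to 7620 to 8009 TPM in OVA/Citra, 4355 to 5564 TPM in OVA and 8880 to 9338 TPM in CTRL libraries. Of these 11 passed the test as lower in OVA than in CTRL cells, beside 39.8% of all tested genes. In OVA/Citra cells 11 passed as higher than in OVA cells, beside 37.8% of all. Against CTRL 1 was higher and 4 were lower in OVA/Citra cells, beside 33.1% and 26.3% of all. The 6 markers of natural killer cells, some of which CD8+ T cells can also express, summed to 250 to 448 TPM in OVA/Citra, 1454 to 2326 TPM in OVA and 11.6 to 13.8 TPM in CTRL libraries. Most of this sum in the peptide groups was Tyrobp and Fcer1g, at 786 and 873 TPM in OVA replicate 1. Klri2 had another order, at 16.3, 14.3 and 18.5 TPM in OVA/Citra, 13.5, 8.06 and 13.9 TPM in OVA and 4.02, 3.88 and 5.9 TPM in CTRL libraries. Among B cell markers Ms4a1 and Pax5 were under 1 TPM in all libraries, whereas Cd79b had 0.349, 0.353 and 0 TPM in OVA/Citra, 0.107, 0.982 and 0.505 TPM in OVA and 9.78, 12.1 and 13.8 TPM in CTRL libraries. Cd79a was likewise lower in both peptide groups than in CTRL cells and Ebf1, at 1.76 TPM or less, was higher. The 11 myeloid markers summed to 16.5 to 25.5 TPM in OVA/Citra, 21.9 to 27.0 TPM in OVA and 7.17 to 11.6 TPM in CTRL libraries. Of these 7 were under 1 TPM throughout, with C1qa at 0, while Cd14, Cd68 and Ly6g passed as higher in OVA than in CTRL cells and Xcr1 as lower. Cd14 had 3.18, 4.18 and 3.34 TPM in OVA/Citra, 7.99, 9.73 and 5.89 TPM in OVA and 0, 0.623 and 0.459 TPM in CTRL libraries. Stromal and epithelial markers summed to 64.9 to 84.6, 264 to 388 and 44.4 to 48.0 TPM in OVA/Citra, OVA and CTRL libraries, with 7 of 10 under 1 TPM and Col3a1 and Krt8 at 0. Most of this sum was Pecam1, at 50.1, 69.9 and 46.6 TPM in OVA/Citra, 247, 346 and 235 TPM in OVA and 41.8, 39.8 and 40.1 TPM in CTRL libraries. Epcam was also highest in OVA libraries, at 28.5, 40.8 and 28.1 TPM. Krt18 went the other way, at 0.109, 0 and 0.413 TPM in OVA and 3.58, 2.91 and 2.89 TPM in CTRL libraries. CD4 T cell markers summed to 18.3 to 19.9, 19.6 to 21.4 and 53.9 to 60.8 TPM, and erythroid and platelet markers to 10.9 to 13.5, 4.23 to 5.39 and 7.95 to 9.28 TPM, in the same order of groups. Granzyme genes made up 3.22 to 4.87% of all transcripts in OVA/Citra, 7.66 to 9.54% in OVA and 0.876 to 1.09% in CTRL libraries. The transcript of Myc, a factor that also drives glycolysis genes, stood at 534 to 558, 129 to 186 and 645 to 658 TPM in the same groups. These shifts run alongside the results that follow, and their part in them was not tested.

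Most glycolysis and hypoxia genes were lower in OVA than in CTRL cells. Of the 33 genes 25 fell, 2 rose (Slc16a1 and Bhlhe41) and 6 did not pass (Pfkfb4, Eno2, Eno3, Ldhb, Hif1a and Vegfa). The median change was -0.76 on the log2(TPM + 1) scale, beside -0.08 for all tested genes. Among all tested genes 39.8% were called lower and 32.1% higher at a limma adjusted p under 0.05. After median of ratios scaling, which divides each library by its typical gene, these shares were 35.8% lower and 36.9% higher, and 24 of the 33 genes were lower and 2 higher. The 3 OVA and 3 CTRL libraries did not overlap for 28 of the 33 genes, beside 75.0% of all tested genes.

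With citraconate added to peptide, 18 of the 33 genes were higher than with peptide alone and 3 were lower (Pfkp, Slc16a1 and Vegfa), while 12 did not pass. The median change was 0.33, beside 0.12 for all tested genes. Because the whole distribution was shifted by this 0.12, single changes between OVA/Citra and OVA cells are given relative to the median gene, while their adjusted p belongs to the change as deposited and changes under other settings are given as fitted. Of all tested genes 37.8% were called higher and 21.2% lower in this comparison, and the libraries of the 2 groups did not overlap for 66.1% of all tested genes and for 20 of the 33. After median of ratios scaling 29.0% of all genes were called higher and 30.1% lower, and 15 of the 33 genes were higher and 4 lower: Pfkl, Pkm and Pfkfb3 no longer passed and Eno1 was called lower.

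OVA/Citra cells remained below CTRL cells for most of the set. Of the 33 genes 24 were lower, 5 were higher (Eno2, Eno3, Ldhb, Hif1a and Bhlhe41) and 4 did not pass (Hk1, Hk2, Pfkfb4 and Arnt). The median change was -0.54, beside 0.04 for all tested genes, of which 26.3% were called lower and 33.1% higher. Libraries of these 2 groups did not overlap for 30 of the 33 genes and for 67.4% of all tested genes. The OVA/Citra libraries enter 2 of these comparisons, as do the OVA and the CTRL libraries, so the 3 sets of changes are not independent.

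**Figure D1:**
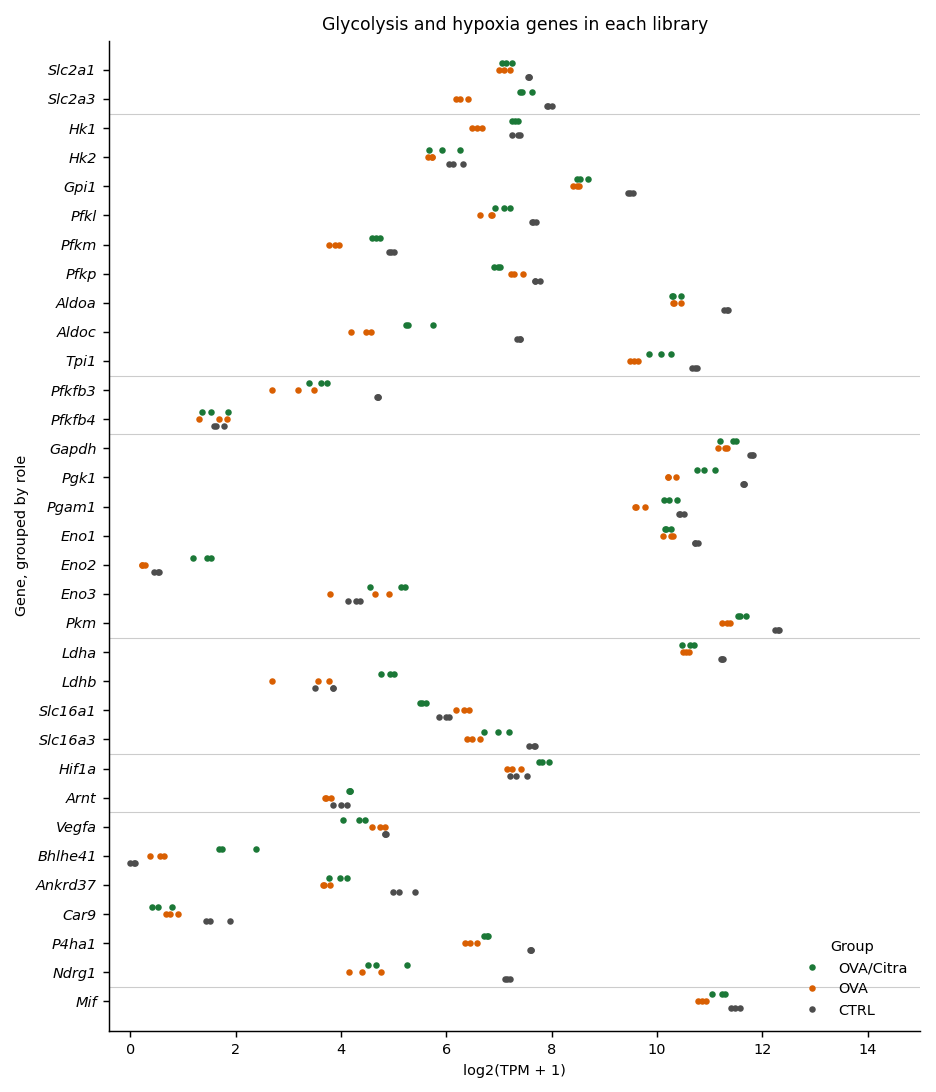
Level of each of the 33 genes in each of the 9 libraries, on the log2(TPM + 1) scale, with genes grouped by role between grey lines and 1 point per library. CTRL points lie to the right of OVA points for most enzymes, while Hif1a, Ldhb, Eno2 and Bhlhe41 have OVA/Citra points farthest to the right.

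**Figure D2:**
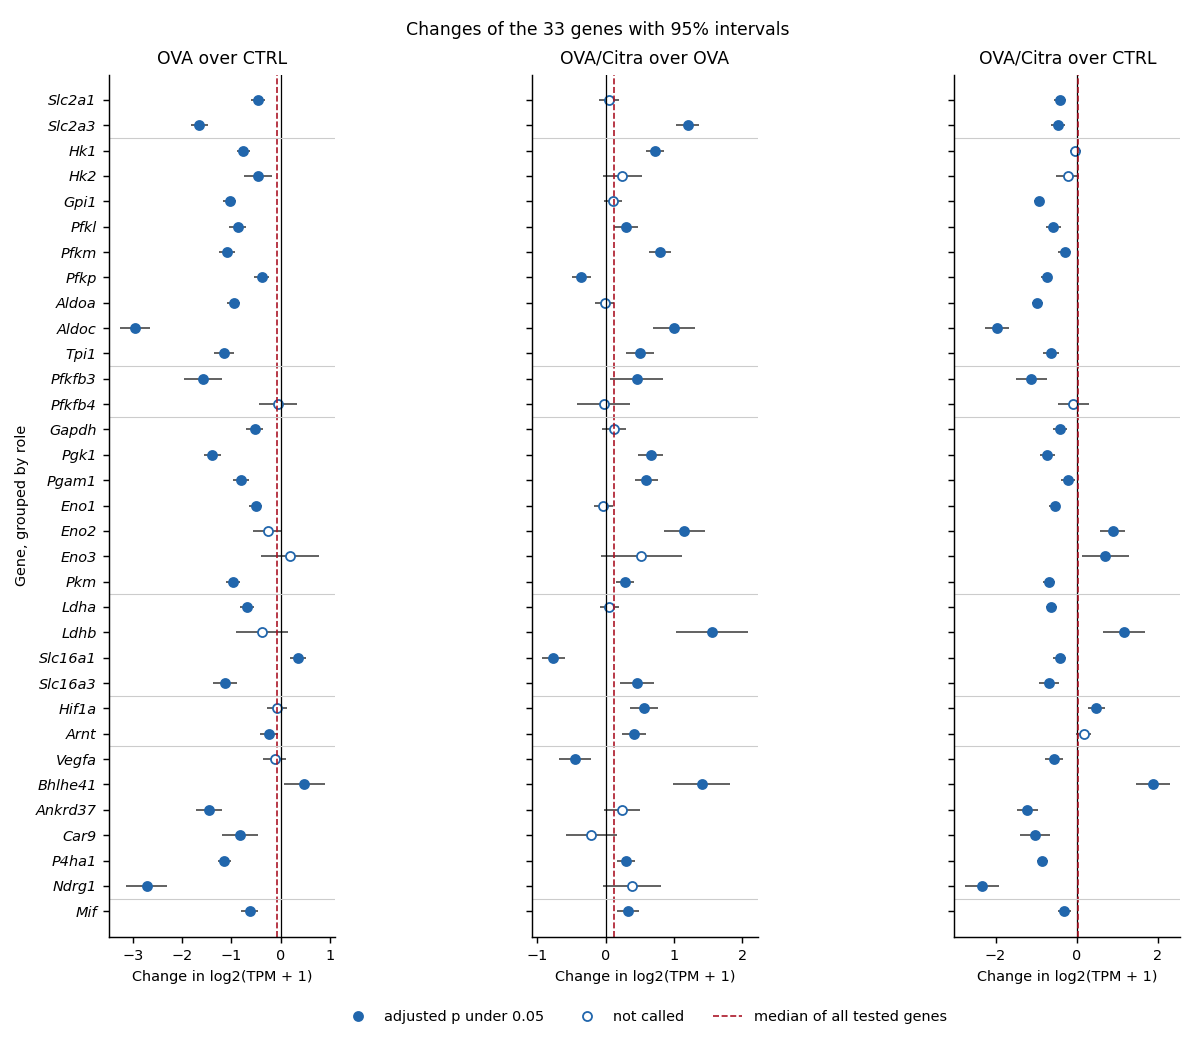
Change of each of the 33 genes in 3 comparisons on the log2(TPM + 1) scale, with 95% intervals from the limma fit; filled points passed at an adjusted p under 0.05. The dashed line is the median of all tested genes, at -0.08, 0.12 and 0.04 from left to right.

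The glucose transporter genes behaved unlike each other. Slc2a3, which encodes the high-affinity transporter GLUT3, had 197, 173 and 167 TPM in OVA/Citra libraries, 76.0, 71.4 and 84.4 TPM in OVA libraries and 255, 242 and 238 TPM in CTRL libraries. The 3 groups were thus fully separated, with OVA lowest. Slc2a3 fell by 68.5% in OVA against CTRL cells (log2 change -1.66 ± 0.08 SE, limma adjusted p = 5.75e-08), and OVA/Citra cells stood 1.08 above OVA cells relative to the median gene (adjusted p = 5.43e-06). Slc2a1, the gene of the widespread transporter GLUT1, had 150, 132 and 139 TPM in OVA/Citra, 126, 147 and 135 TPM in OVA and 189, 188 and 185 TPM in CTRL libraries. OVA/Citra and OVA values of Slc2a1 overlapped, and all 6 lay below CTRL. It fell by 27.4% in OVA cells (adjusted p = 0.000106), and the OVA/Citra minus OVA change was -0.08 relative to the median gene (adjusted p = 0.576). On the TPM scale, which is per transcript length, Slc2a3 made up 56.0 ± 1.2% of the summed transporters in OVA/Citra, 36.2 ± 3.10% in OVA and 56.6 ± 0.684% in CTRL cells (SD, n = 3 each).

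Promoters of 31 of the 33 genes were matched in a RefSeq table (build GRCm38.p6; Ndrg1 and Slc2a3 were not matched), and the 250 bases before each start were searched on both strands for the core of the hypoxia response element, ACGTG or GCGTG. Taking the first start listed for each gene, 23 of 31 windows (74.2%) held a match, beside 10431 of 27025 genes (38.6%). Sequence just after the first start was found in a GENCODE M21 transcript of the gene for 26 of the 31. It was not found for Ldha, Hif1a, Pgam1 and Eno3, whose windows held a match, or for Mif, whose window held none. For ACGTG alone the shares were 14 of 31 (45.2%) and 16.6%. An E-box, CACGTG, which MYC and other factors bind, contains ACGTG on both strands and was present in 5 of the 31 windows and in 6.05% of all. The 33 genes were listed as glycolysis and HIF target genes, so a higher share was to be expected before any expression was measured. The comparison set was all genes with a promoter, not the 11971 genes tested. Base composition was not matched between the sets either, so the shares are descriptions, and a match is not a binding site. The promoters of Pgk1, Slc16a3 and Ankrd37, which fell in OVA cells, are set beside that of Slc16a1, the lactate gene that rose. Each is read 5′ to 3′ on the strand of its gene, ends at the base before the start, and has the matches in capitals.
Pgk1, chrX:106186850-106187099, plus strand: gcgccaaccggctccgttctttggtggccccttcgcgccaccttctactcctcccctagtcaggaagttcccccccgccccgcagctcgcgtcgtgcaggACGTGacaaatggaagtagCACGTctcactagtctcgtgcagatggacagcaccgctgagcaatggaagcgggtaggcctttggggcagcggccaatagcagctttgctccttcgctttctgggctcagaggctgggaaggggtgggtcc
Slc16a3, chr11:120948817-120949066, plus strand: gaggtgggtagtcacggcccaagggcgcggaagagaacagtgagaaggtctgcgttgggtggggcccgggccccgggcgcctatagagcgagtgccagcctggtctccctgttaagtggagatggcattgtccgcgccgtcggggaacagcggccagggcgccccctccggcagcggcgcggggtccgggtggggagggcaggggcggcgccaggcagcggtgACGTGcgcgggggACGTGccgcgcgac
Ankrd37, chr8:45999851-46000100, minus strand: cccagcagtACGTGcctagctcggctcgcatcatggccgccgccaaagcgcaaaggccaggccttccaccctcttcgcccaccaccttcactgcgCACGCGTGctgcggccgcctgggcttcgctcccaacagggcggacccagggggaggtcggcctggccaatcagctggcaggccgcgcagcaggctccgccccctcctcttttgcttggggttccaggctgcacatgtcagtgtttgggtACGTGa
Slc16a1, chr3:104638414-104638663, plus strand: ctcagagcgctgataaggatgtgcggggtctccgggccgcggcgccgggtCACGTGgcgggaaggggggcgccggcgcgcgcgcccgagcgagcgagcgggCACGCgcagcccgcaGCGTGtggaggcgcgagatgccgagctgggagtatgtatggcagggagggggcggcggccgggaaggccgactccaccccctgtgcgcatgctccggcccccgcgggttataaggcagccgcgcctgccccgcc
In Pgk1 the matches begin 150 and 131 bases before the start, and in Slc16a3 27 and 14 bases before it. Ankrd37 has 4 matches, 2 of them overlapping in CACGCGTG, and Slc16a1 has 4, of which 2 are the strands of 1 E-box at 200 bases before the start. The first listed windows of Eno2, Tpi1, Gpi1, Aldoa, Pkm, Hk1, Mif and Vegfa held no match. Windows before further listed starts did hold matches for Hk1 (3), Pkm (1), Vegfa (2) and Aldoa (1 at each further start).

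All 9 upper glycolysis genes, from hexokinase to triosephosphate isomerase, were lower in OVA than in CTRL cells, beside 39.8% of all tested genes. None of the 9 overlapped between these groups, and 75.0% of all tested genes did not overlap either. The steepest decline belonged to Aldoc, the aldolase form best known from brain, with 52.7, 36.4 and 37.6 TPM in OVA/Citra, 17.3, 21.3 and 22.8 TPM in OVA and 168, 162 and 168 TPM in CTRL libraries. Aldoc fell by 87.6% in OVA cells (log2 change -2.97 ± 0.14 SE, limma adjusted p = 5.52e-08), and OVA/Citra cells lay 0.88 above OVA cells relative to the median gene (adjusted p = 0.000171). Its groups were separated at 3 levels, with OVA/Citra still below CTRL (log2 change -1.97). Aldoa, the main aldolase by level, had 1402, 1251 and 1264 TPM in OVA/Citra, 1263, 1405 and 1283 TPM in OVA and 2600, 2485 and 2563 TPM in CTRL libraries. OVA/Citra and OVA values overlapped,. The OVA/Citra minus OVA change of Aldoa was -0.14 relative to the median gene (95% interval of the change as deposited -0.15 to 0.12, adjusted p = 0.870).

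The hexokinase genes, whose products trap glucose in the cell by phosphorylation, also parted. Hk1 had 162, 156 and 151 TPM in OVA/Citra, 89.1, 94.4 and 101 TPM in OVA and 168, 151 and 162 TPM in CTRL libraries. OVA/Citra libraries overlapped CTRL and lay wholly above OVA: the change was 0.60 over OVA relative to the median gene (limma adjusted p = 1.38e-05) and -0.04 against CTRL (95% interval -0.17 to 0.10, adjusted p = 0.633). Hk2, the inducible form, had 49.8, 75.9 and 59.2 TPM in OVA/Citra, 49.1, 52.2 and 52.1 TPM in OVA and 78.9, 68.8 and 65.6 TPM in CTRL libraries. Its OVA/Citra libraries were spread across the range of both other groups, and only the fall in OVA against CTRL passed (-0.46 ± 0.13 SE, adjusted p = 0.00825). Without OVA/Citra replicate 1 the change of Hk2 over OVA was 0.38 (adjusted p = 0.0176), and without OVA/Citra replicate 2 the change against CTRL was -0.38 (adjusted p = 0.00847).

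Phosphofructokinase, the committed step, has 3 subunit genes. Pfkm, the muscle form, had 23.0, 25.6 and 24.3 TPM in OVA/Citra, 12.6, 14.6 and 13.8 TPM in OVA and 31.0, 29.7 and 29.2 TPM in CTRL libraries, and Pfkl, the liver form, had 147, 121 and 136 TPM, 99.1, 114 and 115 TPM and 208, 197 and 198 TPM in the same groups. Both lay between OVA and CTRL in OVA/Citra cells without overlap. Pfkp, the platelet form, had 126, 128 and 119 TPM in OVA/Citra, 148, 174 and 156 TPM in OVA and 219, 204 and 203 TPM in CTRL libraries, so it was lowest with citraconate. Relative to the median gene Pfkm was 0.67 higher (limma adjusted p = 2.15e-05) and Pfkp lower (-0.48, adjusted p = 0.000988) in OVA/Citra than in OVA cells. Pfkl was 0.17 higher (adjusted p = 0.00865), a call lost under median of ratios scaling (adjusted p = 0.0713). The summed phosphofructokinase level did not separate these groups, at 296, 275 and 280 TPM in OVA/Citra and 260, 302 and 285 TPM in OVA libraries.

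Gpi1, which makes fructose 6-phosphate, had 411, 357 and 371 TPM in OVA/Citra, 337, 366 and 355 TPM in OVA and 719, 699 and 749 TPM in CTRL libraries. It stood like Aldoa, low with peptide whether or not citraconate was present (OVA/Citra minus OVA -0.02 relative to the median gene, limma adjusted p = 0.158). Tpi1, triosephosphate isomerase, had 1229, 925 and 1083 TPM in OVA/Citra, 719, 757 and 791 TPM in OVA and 1681, 1616 and 1729 TPM in CTRL libraries. Its 3 groups did not overlap, and it was 0.38 higher in OVA/Citra than in OVA cells relative to the median gene (adjusted p = 0.000837).

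Pfkfb3 and Pfkfb4 encode bifunctional enzymes that set fructose 2,6-bisphosphate, the activator of phosphofructokinase. Pfkfb3 had 11.2, 9.50 and 12.3 TPM in OVA/Citra, 8.12, 5.41 and 10.2 TPM in OVA and 24.6, 25.1 and 25.0 TPM in CTRL libraries. All 6 libraries with peptide lay below the CTRL libraries, and it fell by 68.1% in OVA cells (limma adjusted p = 1.85e-05). OVA/Citra and OVA values of Pfkfb3 overlapped. The call between them (0.33 relative to the median gene, adjusted p = 0.0441) was lost under scaling (adjusted p = 0.104), in a fit of these 2 groups alone (adjusted p = 0.0883) and on leaving out any of 7 libraries. Pfkfb4 stayed at 1.57 to 2.61 TPM in OVA/Citra, 1.46 to 2.58 TPM in OVA and 1.99 to 2.44 TPM in CTRL libraries, all overlapping, and passed in no comparison.

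In lower glycolysis 5 of 7 genes fell in OVA against CTRL cells, namely Gapdh, Pgk1, Pgam1, Eno1 and Pkm, and Eno2 and Eno3 did not pass. Among all tested genes 39.8% were called lower and 32.1% higher there. Pgk1, phosphoglycerate kinase, an ATP-yielding step, had 2182, 1738 and 1902 TPM in OVA/Citra, 1174, 1178 and 1320 TPM in OVA and 3213, 3157 and 3222 TPM in CTRL libraries. These values formed 3 separate levels. Pgk1 fell by 61.7% in OVA cells (log2 change -1.39 ± 0.08 SE, limma adjusted p = 2.46e-07) and was 0.54 higher in OVA/Citra than in OVA cells relative to the median gene (adjusted p = 9.15e-05). Pgam1, phosphoglycerate mutase, had 1335, 1118 and 1199 TPM in OVA/Citra, 778, 760 and 877 TPM in OVA and 1464, 1357 and 1387 TPM in CTRL libraries. It came closer to CTRL than Pgk1 did: it was 0.47 higher than in OVA cells relative to the median gene (adjusted p = 0.000115), and its deficit against CTRL (-0.21, adjusted p = 0.0366) was lost on leaving out any CTRL library or OVA/Citra replicate 2 or 3 (adjusted p 0.0549 to 0.120) and in a fit without the filter on low values or without a trend.

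Gapdh, which couples oxidation of triose phosphate to NADH, had 2881, 2350 and 2786 TPM in OVA/Citra, 2286, 2498 and 2583 TPM in OVA and 3607, 3463 and 3566 TPM in CTRL libraries. Eno1, the main enolase, had 1230, 1142 and 1146 TPM, 1102, 1264 and 1232 TPM and 1752, 1676 and 1691 TPM in the same groups. For both genes the OVA/Citra and OVA libraries overlapped and lay below CTRL, and neither passed between OVA/Citra and OVA (limma adjusted p = 0.220 for Gapdh and 0.679 for Eno1). Without OVA/Citra replicate 2 the Gapdh change over OVA was 0.21 (adjusted p = 0.0125), and after median of ratios scaling Eno1 was called lower (-0.17, adjusted p = 0.0328). Pkm, pyruvate kinase, the other ATP-yielding step, had 3309, 2968 and 3051 TPM in OVA/Citra, 2393, 2688 and 2579 TPM in OVA and 5084, 4827 and 5026 TPM in CTRL libraries. Pkm rose by 0.16 over OVA relative to the median gene (adjusted p = 0.00290), a call that scaling removed (adjusted p = 0.0694).

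The minor enolase genes took another course. Eno2, the form best known from neurons, had 53, 36 and 53 reads in OVA/Citra, 5, 5 and 7 reads in OVA and 12, 13 and 12 reads in CTRL libraries, which is 1.88, 1.29 and 1.74 TPM, 0.163, 0.166 and 0.215 TPM and 0.441, 0.451 and 0.368 TPM. OVA/Citra libraries lay above all others at this low level (1.03 over OVA relative to the median gene, limma adjusted p = 7.26e-05, and 0.89 over CTRL, adjusted p = 0.000289). The OVA and CTRL libraries were also separate, and that difference did not pass with a pseudocount of 1 TPM (adjusted p = 0.0998) but did with 0.1 TPM (-0.89, adjusted p = 0.0227), with voom on recovered reads (adjusted p = 0.0287), without the filter and without a trend. Eno3, the muscle form, ranged from 22.3 to 36.2 TPM in OVA/Citra, from 12.7 to 28.9 TPM in OVA and from 16.5 to 19.6 TPM in CTRL libraries. Its call over CTRL (0.71, adjusted p = 0.0397) was lost on leaving out any CTRL library or OVA/Citra replicate 1 or 3 (adjusted p 0.0651 to 0.126), without the filter and without a trend. Over OVA the change of Eno3 passed on leaving out OVA replicate 3 (adjusted p = 0.0286) or OVA/Citra replicate 2 (adjusted p = 0.0392), and OVA over CTRL passed on leaving out OVA replicate 2 (0.51, adjusted p = 0.0267).

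Summed over paralogs, the 18 enzyme genes form 11 steps, and every step was lower in OVA than in CTRL cells. The ratio of mean levels ran between 0.383 at phosphoglycerate kinase and 0.708 at enolase. With citraconate the ratios to OVA ran between 0.987 at enolase and 1.59 at phosphoglycerate kinase. These are ratios of TPM as deposited, in a comparison where the median gene was shifted by 0.12 on the log2 scale. The libraries did not overlap for 66.1% of all tested genes there. The steps are listed by overlap only. Hexokinase (1.5), triosephosphate isomerase (1.43), phosphoglycerate kinase (1.59), phosphoglycerate mutase (1.51) and pyruvate kinase (1.22) were above OVA with no overlap of libraries. Aldolase (1.01), phosphofructokinase (1.0), enolase (0.987), lactate dehydrogenase (1.05), glucose-6-phosphate isomerase (1.08) and GAPDH (1.09) overlapped with OVA. Against CTRL the OVA/Citra ratios ran between 0.496 at aldolase and 0.942 at hexokinase. These step sums were not tested. Pyruvate kinase is Pkm alone, whose call over OVA was lost under median of ratios scaling.

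**Figure D3:**
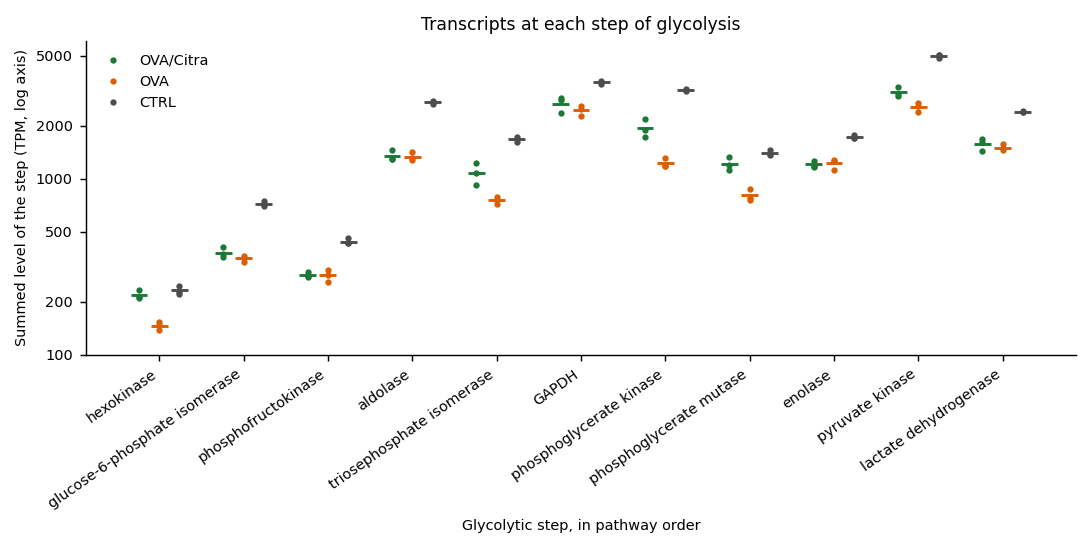
Summed level of the genes of each glycolytic step on a logarithmic TPM axis, with 1 point per library and a line at each group mean (n = 3). Every step is lower in OVA than in CTRL libraries, and OVA/Citra libraries lie above OVA at 5 of the 11 steps without overlap.

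Together the 18 enzyme transcripts took 1.63, 1.39 and 1.5% of all transcripts in OVA/Citra, 1.19, 1.29 and 1.31% in OVA and 2.34, 2.25 and 2.32% in CTRL libraries. The sums were 15037 ± 1207 TPM in OVA/Citra, 12637 ± 613 TPM in OVA and 23042 ± 483 TPM in CTRL cells (SD, n = 3 each). OVA/Citra libraries lay above all OVA libraries, nearest in OVA/Citra replicate 2, which also had the lowest values of the group for Pgk1, Tpi1, Gapdh, Pgam1, Ldha and Mif. After median of ratios scaling the means were 14349, 13250 and 22693 TPM in the same order, and OVA/Citra and OVA libraries then overlapped, with OVA/Citra replicate 2 at 13460 TPM and OVA replicate 2 at 13754 TPM.

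At the lactate end, Ldha, which turns pyruvate into lactate, had 1663, 1417 and 1587 TPM in OVA/Citra, 1437, 1488 and 1560 TPM in OVA and 2391, 2374 and 2427 TPM in CTRL libraries. OVA/Citra and OVA values overlapped, both below CTRL, and Ldha fell by 37.6% in OVA cells (limma adjusted p = 4.96e-06) with no call between OVA/Citra and OVA (-0.07 relative to the median gene, adjusted p = 0.469). Ldhb, whose subunit favours the reverse reaction, had 29.6, 26.0 and 31.0 TPM in OVA/Citra, 10.8, 5.47 and 12.7 TPM in OVA and 13.4, 10.3 and 13.3 TPM in CTRL libraries. OVA and CTRL overlapped, and all OVA/Citra libraries lay above them. On the log2(TPM + 1) scale, which understates low genes such as Eno2 and Bhlhe41, this was the largest rise over OVA among the 33 genes (1.43 relative to the median gene, adjusted p = 0.000323), and it also stood 1.17 above CTRL (adjusted p = 0.00174). Against CTRL the OVA change of Ldhb (-0.38, adjusted p = 0.164) passed without OVA replicate 3 (-0.60, adjusted p = 0.0343).

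The monocarboxylate transporters, which move lactate and pyruvate across the membrane, moved in opposite directions. Slc16a3 (MCT4), linked to lactate export and known as a HIF target, had 145, 104 and 125 TPM in OVA/Citra, 82.8, 88.1 and 98.7 TPM in OVA and 205, 189 and 202 TPM in CTRL libraries. Slc16a1 (MCT1) had 44.0, 45.6 and 48.0 TPM in OVA/Citra, 79.4, 84.8 and 71.4 TPM in OVA and 62.4, 64.9 and 57.4 TPM in CTRL libraries. Neither gene overlapped between any 2 groups, and their orders were opposite between OVA and CTRL: Slc16a3 fell by 54.8% (limma adjusted p = 6.36e-06) and Slc16a1 rose by 0.35 (adjusted p = 0.00175). Slc16a1 was then lower in OVA/Citra than in OVA cells (-0.88 relative to the median gene, adjusted p = 2.77e-05) and below CTRL as well (-0.42, adjusted p = 0.000804), while Slc16a3 was 0.34 higher than in OVA cells (adjusted p = 0.00448). Slc16a1 thus made up 27.2 ± 3.64% of the pair in OVA/Citra, 46.7 ± 4.06% in OVA and 23.7 ± 1.75% in CTRL cells (SD, n = 3 each).

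Shares within a paralog family do not depend on the scaling of a library. Families with at least 1 share that did not overlap between groups numbered 7 of 8 for OVA against CTRL, 7 of 8 for OVA/Citra against OVA and 5 of 8 for OVA/Citra against CTRL. In the same comparisons the levels of 75.0, 66.1 and 67.4% of all tested genes did not overlap, so separation was common. Shares in other gene families were not computed, so the counts are descriptions only. In an exact two-sided permutation test 3 libraries against 3 cannot give a p below 0.1, so each such separation had p = 0.1, the smallest the design allows, and none can pass. Pfkp took 43.9 ± 2.44% of phosphofructokinase transcripts in OVA/Citra, 56.4 ± 1.52% in OVA and 47.5 ± 0.321% in CTRL cells (SD, n = 3 each). Hk2 took 28.1 ± 4.62, 35.1 ± 0.814 and 30.7 ± 1.67% of hexokinase in the same groups, and Aldoc 3.11 ± 0.441, 1.53 ± 0.202 and 6.10 ± 0.0375% of aldolase. Ldhb took 1.82 ± 0.0871, 0.641 ± 0.240 and 0.512 ± 0.0699% of lactate dehydrogenase. For Slc2a3, Hk2 and Slc16a1 the OVA/Citra and CTRL shares overlapped (exact permutation p = 0.6, 0.6 and 0.3), while Pfkm, Pfkp, Aldoc and Ldhb shares were apart there too. Near-identical copies can take reads from a parent gene: Pgk1-rs7 reached 30.5 TPM and Eno1b 7.72 TPM, while 8 other listed copies were at 0 in all libraries, and how reads were divided is not known.

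**Figure D4:**
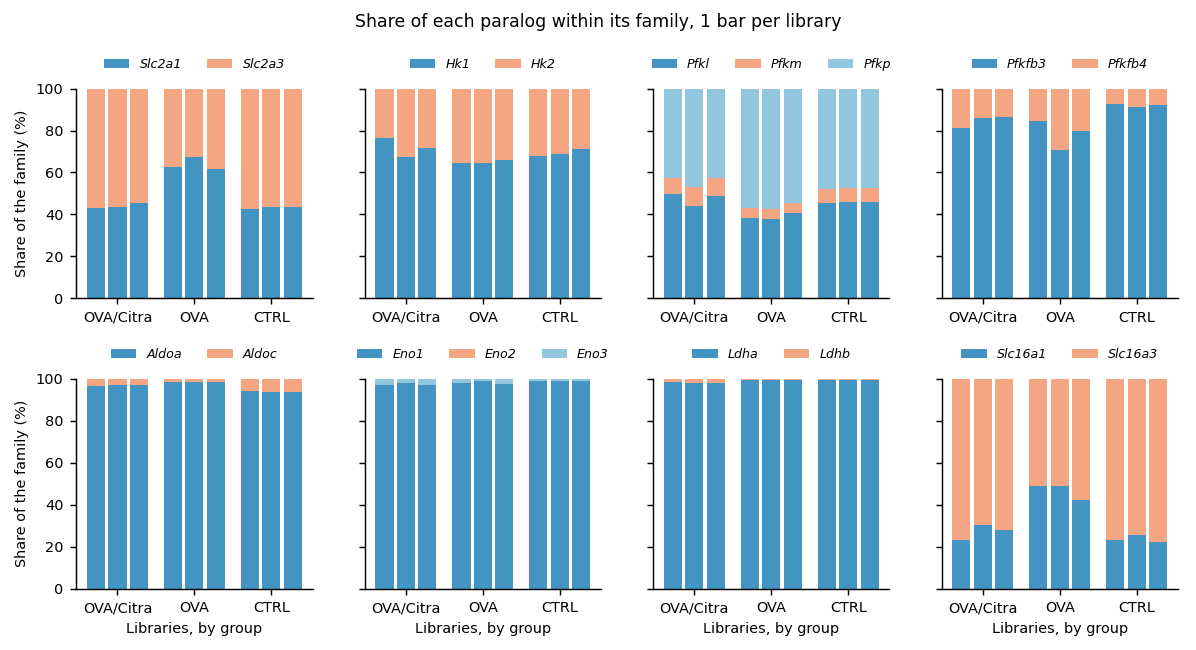
Share of each paralog in the summed TPM of its family, in percent, with 1 bar per library and the groups from left to right OVA/Citra, OVA and CTRL. Slc2a3 is the larger part in OVA/Citra and CTRL libraries and the smaller part in OVA libraries, while Slc16a1 and Pfkp take their largest shares in OVA libraries.

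Of the HIF subunits, Hif1a had 224, 215 and 244 TPM in OVA/Citra, 142, 150 and 170 TPM in OVA and 183, 159 and 147 TPM in CTRL libraries. OVA and CTRL overlapped, and OVA/Citra lay above both. Hif1a was 0.44 higher than in OVA cells relative to the median gene (limma adjusted p = 0.000457) and 0.49 higher than in CTRL cells (adjusted p = 0.00107), and the OVA minus CTRL change was -0.08 (95% interval -0.28 to 0.12, adjusted p = 0.457). Arnt had 17.0, 17.1 and 16.7 TPM in OVA/Citra, 12, 12.2 and 13.0 TPM in OVA and 16.4, 14.9 and 13.5 TPM in CTRL libraries. All OVA libraries lay below the others, and OVA/Citra lay just above CTRL. Arnt was 0.29 higher in OVA/Citra than in OVA cells relative to the median gene (adjusted p = 0.00142). Its fall in OVA against CTRL (-0.24, adjusted p = 0.0199) was lost under scaling (adjusted p = 0.0631) and without CTRL replicate 1 or 2 or OVA replicate 1 (adjusted p 0.0518 to 0.0799), and OVA/Citra over CTRL (0.17, adjusted p = 0.0864) passed with voom on recovered reads (adjusted p = 0.0205) and without CTRL replicate 1 (adjusted p = 0.0335).

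HIF targets outside glycolysis did not move as a block. Ndrg1, a stress-responsive gene, had 37.3, 21.8 and 24.4 TPM in OVA/Citra, 19.95, 16.7 and 26.0 TPM in OVA and 147, 137 and 140 TPM in CTRL libraries. P4ha1, a subunit of the hydroxylase that modifies collagen, had 110, 104 and 108 TPM in OVA/Citra, 80.7, 86.4 and 94.5 TPM in OVA and 191, 195 and 194 TPM in CTRL libraries. Ankrd37, a gene used as a hypoxia marker, had 16.2, 12.6 and 14.8 TPM in OVA/Citra, 11.5, 12.8 and 11.8 TPM in OVA and 30.9, 33.4 and 41.2 TPM in CTRL libraries. All 3 were far below CTRL in every peptide library. In OVA against CTRL cells Ndrg1 fell by 85.2% (limma adjusted p = 7.47e-07), Ankrd37 fell by 65.7% (adjusted p = 1.92e-06) and P4ha1 fell by 54.9% (adjusted p = 1.22e-07). Over OVA, P4ha1 alone of these rose with citraconate (0.17 relative to the median gene, adjusted p = 0.00167). Ndrg1 (0.26, adjusted p = 0.106) and Ankrd37 (0.12, adjusted p = 0.0953) overlapped with OVA, and passed without OVA/Citra replicate 2 (adjusted p = 0.0388 and 0.0347), Ndrg1 also without OVA replicate 3 (adjusted p = 0.0286).

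Vegfa, the vascular growth factor gene, had 20.8, 19.4 and 15.5 TPM in OVA/Citra, 23.2, 27.7 and 25.5 TPM in OVA and 27.8, 27.5 and 27.6 TPM in CTRL libraries. OVA and CTRL overlapped and OVA/Citra lay below both (-0.57 against OVA relative to the median gene, limma adjusted p = 0.00445). Car9, a carbonic anhydrase at the cell surface, rested on few reads, with 10, 6 and 5 reads in OVA/Citra, 9, 13 and 11 reads in OVA and 36, 26 and 27 reads in CTRL libraries. It was lower than CTRL with and without citraconate (adjusted p = 0.000402 and 0.00111) and did not pass between OVA/Citra and OVA (adjusted p = 0.304). Bhlhe41, a transcriptional repressor of the clock family, had 83, 87 and 170 reads in OVA/Citra, 23, 12 and 21 reads in OVA and 2, 2 and 0 reads in CTRL libraries. Its 3 groups did not overlap, at 2.21, 2.34 and 4.2 TPM in OVA/Citra and 0.563, 0.299 and 0.485 TPM in OVA libraries. It passed for OVA/Citra over OVA (1.28 relative to the median gene, adjusted p = 0.000162), and its call for OVA over CTRL (adjusted p = 0.0416) was lost on leaving out any CTRL library, OVA replicate 1 or OVA replicate 3 (adjusted p 0.0747 to 0.116). Mif, a cytokine gene that HIF also induces, had 2498, 2111 and 2400 TPM in OVA/Citra, 1851, 1760 and 1958 TPM in OVA and 3050, 2720 and 2871 TPM in CTRL libraries, 3 separate levels in the pattern of Pgk1, with a fall of 35.5% in OVA cells (adjusted p = 2.71e-05) and 0.21 above OVA with citraconate (adjusted p = 0.00341).

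Other genes of the same pathways were listed as well, also with earlier results of these data known. Of 27 tested HIF targets that are not among the 33, 21 fell and 6 rose in OVA against CTRL cells (39.8% and 32.1% of all tested genes). Their median change was -1.34, beside -0.08 for all tested genes. Over OVA, 21 were higher and 4 lower in OVA/Citra cells (37.8% and 21.2% of all), with a median of 0.61 beside 0.12. Against CTRL, 18 were lower and 5 higher in OVA/Citra cells (26.3% and 33.1% of all), with a median of -0.39 beside 0.04. After scaling, the counts over OVA were 19 higher and 4 lower, beside 29.0% and 30.1% of all genes. The largest shifts were in Cxcr4, a chemokine receptor gene, at 22.4 ± 4.58 TPM in OVA/Citra, 1.78 ± 0.216 TPM in OVA and 109 ± 10.2 TPM in CTRL cells, and Zfp395, at 21 ± 6.69, 2.18 ± 0.547 and 95.7 ± 2.25 TPM (SD, n = 3 each). P4ha2, the paralog of P4ha1, stood at 19.2 ± 2.48, 3.0 ± 1.5 and 41.2 ± 1.85 TPM. Relative to the median gene the rises over OVA were 2.93 for Cxcr4 (limma adjusted p = 1.93e-06), 2.63 for Zfp395 (adjusted p = 8.38e-06) and 2.27 for P4ha2 (adjusted p = 1.79e-05). Kdm3a, a histone demethylase that uses 2-oxoglutarate, had 19.6 ± 2.05 TPM in OVA/Citra, 13.8 ± 0.243 TPM in OVA and 97.3 ± 7.53 TPM in CTRL cells. It stayed far below CTRL in OVA/Citra cells (log2 change -2.26, limma adjusted p = 2.97e-08) and was lowest in OVA cells.

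Among the 18 genes of oxygen sensing and HIF subunits, 6 rose and 9 fell in OVA against CTRL cells, beside 32.1% and 39.8% of all tested genes. Over OVA, 5 were higher and 2 lower in OVA/Citra cells, beside 37.8% and 21.2% of all. After scaling these counts were 4 and 4, beside 29.0% and 30.1%. Against CTRL, 6 were higher and 5 lower in OVA/Citra cells, beside 33.1% and 26.3%. Epas1, which encodes HIF-2alpha, had 27.5 ± 12.5 TPM in OVA/Citra, 133 ± 43.1 TPM in OVA and 3.56 ± 0.462 TPM in CTRL cells (SD, n = 3 each), so its highest level was in OVA cells, whereas that of Hif1a was in OVA/Citra cells. It rose by 4.84 on the log2 scale in OVA over CTRL cells (limma adjusted p = 2.29e-07), and OVA/Citra lay below OVA (-2.40 relative to the median gene, adjusted p = 9.06e-05). Arnt2, a second partner subunit, followed the same order at 1.2 ± 0.414, 12 ± 2.72 and 0.274 ± 0.127 TPM. Egln3, an oxygen-dependent hydroxylase and itself a HIF target, ran the other way at 66.4 ± 9.29, 22.7 ± 5.05 and 272 ± 12.3 TPM. Its OVA minus CTRL change was -3.54 (adjusted p = 2.34e-08). Cited2, which competes with HIF for coactivators, was lowest in OVA cells, at 79.7 ± 3.74 TPM in OVA/Citra, 59.95 ± 5.01 TPM in OVA and 135 ± 1.39 TPM in CTRL cells. It was lower in OVA/Citra than in CTRL cells (limma adjusted p = 6.39e-06).

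Genes for the fate of pyruvate changed as well. Of 13 tested genes for pyruvate entry into mitochondria, 7 rose and 5 fell in OVA against CTRL cells, beside 32.1% and 39.8% of all tested genes. Pdha1, Pdhb, Dlat, Pdhx and Dld, the parts of pyruvate dehydrogenase, rose, as did the phosphatase gene Pdp1 and the carrier gene Mpc2. Pdk1, Pdk2 and Pdk3, the kinases that switch the enzyme off, fell, and so did the phosphatase genes Pdp2 and Pdpr. The fall of Pdk2 was lost without CTRL replicate 2 (limma adjusted p = 0.0787). In OVA/Citra against OVA cells 6 were higher and 2 lower, beside 37.8% and 21.2% of all tested genes. After scaling these counts were 3 and 4, beside 29.0% and 30.1%. Against CTRL 7 were higher and 2 lower in OVA/Citra cells, beside 33.1% and 26.3%. Pdk1 stood at 29.1 ± 3.93 TPM in OVA/Citra, 16.2 ± 2.65 TPM in OVA and 69.9 ± 10.2 TPM in CTRL cells, and Pdk2 at 10.7 ± 0.978, 2.57 ± 1.03 and 4.51 ± 1.08 TPM (SD, n = 3 each). Dlat had 44.1 ± 1.97, 72.4 ± 5.19 and 24 ± 0.989 TPM, the reverse of Pdk1. Pdp1, a phosphatase subunit that switches the enzyme on, had 14.7 ± 1.0, 12.5 ± 0.495 and 7.62 ± 0.340 TPM. It rose in OVA over CTRL cells (0.64, adjusted p = 3.85e-05), and its call for OVA/Citra over OVA was lost under scaling (adjusted p = 0.316) and without OVA replicate 1 or 2 or OVA/Citra replicate 2 or 3 (adjusted p 0.0527 to 0.131). Pdp2, another catalytic subunit, ran against Pdp1 at 6.82, 6.31 and 6.49 TPM in OVA/Citra, 6.27, 6.20 and 6.55 TPM in OVA and 9.93, 9.46 and 8.37 TPM in CTRL libraries (OVA minus CTRL -0.48, adjusted p = 0.000677). Pdpr, the regulatory subunit, had 13.7, 11.4 and 10.7 TPM in OVA/Citra, 10.7, 8.07 and 8.08 TPM in OVA and 14.6, 13.9 and 13.3 TPM in CTRL libraries (OVA minus CTRL -0.59, adjusted p = 0.00134). Its call as higher in OVA/Citra than in OVA cells was lost under scaling (adjusted p = 0.0919) and without OVA replicate 2 or 3 or OVA/Citra replicate 1 (adjusted p 0.0629 to 0.0817).

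Of 18 tested further glycolysis and gluconeogenesis genes, 8 rose and 5 fell in OVA against CTRL cells, beside 32.1% and 39.8% of all tested genes, so the share that passed was near that of all genes. In the other comparisons 6 were higher and 8 lower in OVA/Citra than in OVA cells, beside 37.8% and 21.2% of all tested genes. Against CTRL 6 were higher and 5 lower in OVA/Citra cells, beside 33.1% and 26.3%. Gpd2, the mitochondrial glycerophosphate dehydrogenase that passes cytosolic electrons to the respiratory chain, had 60.4 ± 4.52 TPM in OVA/Citra, 98.9 ± 9.97 TPM in OVA and 13.7 ± 2.02 TPM in CTRL cells (SD, n = 3 each). Its rise in OVA cells (2.77, limma adjusted p = 2.23e-08) ran against the fall of the enzymes above. Pck2, mitochondrial phosphoenolpyruvate carboxykinase, had 27.0 ± 1.07, 74.0 ± 4.46 and 29.3 ± 1.63 TPM, and Galm, which interconverts glucose anomers, 19.1 ± 3.37, 3.64 ± 1.74 and 8.61 ± 0.648 TPM. Pgm2, of the phosphoglucomutase family, had 98.6 ± 12.9, 68.6 ± 1.65 and 186 ± 5.35 TPM.

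Only 4 of 15 other glucose and monocarboxylate transporters were tested. In OVA against CTRL cells 2 rose and 2 fell, beside 32.1% and 39.8% of all tested genes. In OVA/Citra cells 3 were higher and 1 lower than in OVA cells, beside 37.8% and 21.2%. Against CTRL 2 were higher and 2 lower in OVA/Citra cells, beside 33.1% and 26.3%. Slc2a6, a hexose transporter of the lysosome, had 26.2 ± 1.43 TPM in OVA/Citra, 5.31 ± 3.20 TPM in OVA and 1.26 ± 0.578 TPM in CTRL cells (SD, n = 3 each). It was 2.10 above OVA relative to the median gene (limma adjusted p = 0.000191) and 3.62 above CTRL (adjusted p = 5.92e-06). Slc16a6 had 36.9 ± 2.09, 62.9 ± 4.23 and 27.6 ± 2.49 TPM and Slc2a8 6.86 ± 0.766, 4.01 ± 0.524 and 9.49 ± 0.351 TPM, opposite orders of the groups.

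All 10 genes of the pentose phosphate branch, which makes NADPH and ribose, passed the test in OVA against CTRL cells, where 7 rose and 3 fell, beside 32.1% higher and 39.8% lower among all tested genes. With citraconate 2 were higher and 6 lower than in OVA cells, beside 37.8% and 21.2% of all tested genes. Against CTRL 2 were higher and 4 lower in OVA/Citra cells, beside 33.1% and 26.3%. G6pdx, the entry enzyme, had 48.9 ± 2.24 TPM in OVA/Citra, 74.9 ± 7.22 TPM in OVA and 45.7 ± 3.08 TPM in CTRL cells (SD, n = 3 each), and H6pd, its counterpart in the endoplasmic reticulum, 8.16 ± 1.0, 23.4 ± 2.61 and 14.5 ± 0.893 TPM. Relative to the median gene OVA/Citra lay below OVA for G6pdx (-0.73, limma adjusted p = 0.000126) and for H6pd (-1.54, adjusted p = 8.64e-06). Prps2, which makes the ribose donor of nucleotides, had the opposite order to G6pdx at 44.7 ± 0.911, 32.8 ± 3.18 and 53.2 ± 0.408 TPM. Pgd had 78.4 ± 2.45 TPM in OVA/Citra, 77.15 ± 4.645 TPM in OVA and 56.7 ± 1.49 TPM in CTRL cells. Tkt, transketolase, had 261 ± 19.3, 249 ± 8.92 and 346 ± 9.19 TPM in the same order. Against CTRL, OVA/Citra cells were higher for Pgd (limma adjusted p = 6.57e-05) and lower for Tkt (adjusted p = 0.000203). OVA cells differed from CTRL in the same directions, and neither gene passed between OVA/Citra and OVA.

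**Figure D5:**
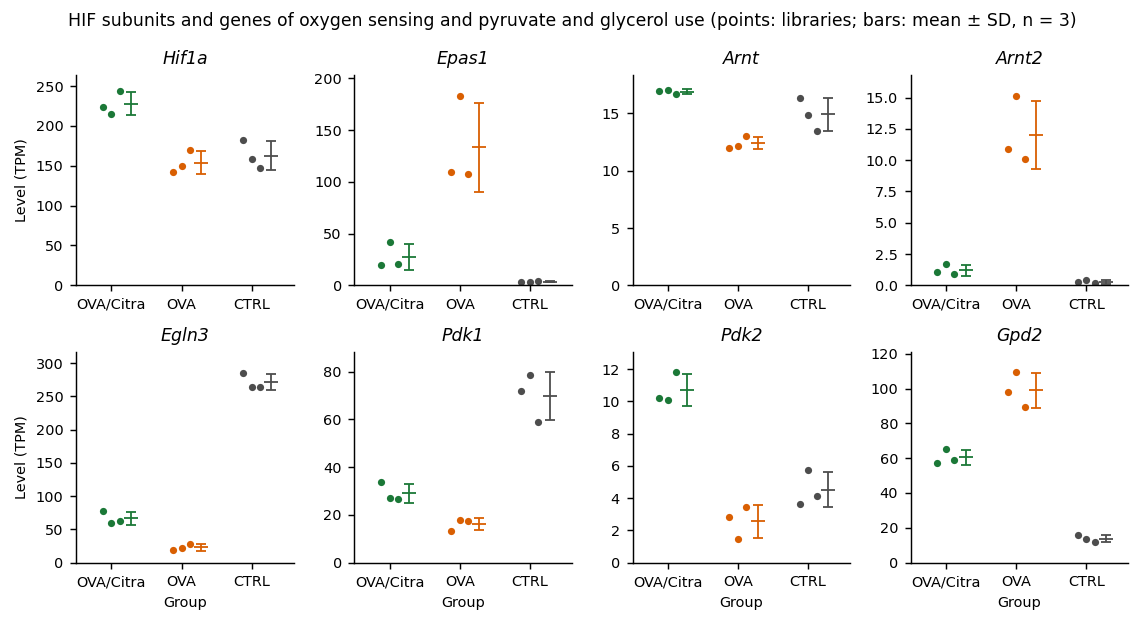
Level in TPM of Hif1a, Epas1, Arnt and Arnt2, of the hydroxylase gene Egln3, of the pyruvate dehydrogenase kinase genes Pdk1 and Pdk2 and of Gpd2, with 1 point per library and the mean ± SD (n = 3) beside the points. Epas1, Arnt2 and Gpd2 are highest in OVA libraries, Egln3 and Pdk1 are lowest there, and Hif1a and Pdk2 are highest in OVA/Citra libraries.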

How the data were processed

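The deposited table gives 1 TPM value per gene and library, which the authors made; each of the 9 columns sums to 1000000, although the table is named for FPKM. Per the submitters' processing notes, the tools were Salmon and Trim Galore 0.5.0 and the mouse build was GRCm39; no annotation is named. Whole reads per gene could be worked back from the TPM values for 16734 of 16734 genes above 0 in at least 2 libraries (100%, tolerance 0.0001 reads or 3e-08 of the count) and gave 14754470 to 17384330 reads per library and 14537 to 15111 genes above 0.

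The fit used log2(TPM + 1). Every gene whose mean reached 1 TPM in some group entered 1 limma fit over 9 libraries (limma 3.58.1, R 4.3.3; lmFit, eBayes with a trend), two-sided, with Benjamini-Hochberg adjustment over all 11971 genes and calls at an adjusted p under 0.05. Shares of paralogs used an exact permutation test (scipy 1.17.1). Alternatives were another pseudocount, 2 other filters, median of ratios scaling, no trend, 2 groups per fit, voom on recovered reads, a replicate block and leaving out each library. The steps were tested on simulated data. Correlations of same-numbered libraries from different groups ran between -0.012 and 0.304, and those of differently numbered libraries between -0.254 and 0.168. OVA/Citra replicate 2 had 0.304 with OVA replicate 2, and -0.125 and -0.254 with OVA replicates 1 and 3. Replicate numbers were not used to pair samples in the main fit.

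The members, gene lists and settings were chosen with earlier results of these data known. All members are named; of each other list, up to 3 genes per comparison are named by the largest change among called genes with separate groups and at least 5 TPM in the higher group, beside the Pdh, Pdk and Pdp genes, Pdpr and markers of other cells, chosen after their values were seen. Elob, Eloc and Ero1a were matched as Tceb2, Tceb1 and Ero1l. Itgam, a listed myeloid marker, was not used here. Protein sequences were not used here. The sum of the B cell marker list and 1 of its genes are not reported here.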

Additional observations from a re-analysis of the deposited data

How the results depend on the processing

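Of the 33 changes per comparison, 26 (OVA against CTRL), 19 (OVA/Citra against OVA) and 28 (OVA/Citra against CTRL) had the same call and direction under every alternative run. The number of the 33 genes called higher in OVA against CTRL cells was 1 with a filter at a mean of 5 TPM, 1 with only the 2 compared groups in the fit, where Bhlhe41 is under the filter, and 1 to 3 on leaving out a library; the number called higher in OVA/Citra against CTRL cells was 3 with the 5 TPM filter, under which Eno2 and Bhlhe41 are not tested. No value was called under a setting that turned its sign, nor as reported. Under median of ratios scaling the OVA minus CTRL change was 0.0073 for Pfkfb4 and 0.013 for Hif1a, and the OVA/Citra minus OVA change was -0.090 for Slc2a1, -0.030 for Gpi1, -0.017 for Gapdh, -0.080 for Ldha, -0.11 for Pgd, -0.079 for Pdp2 and -0.075 for Tkt; scaling removes the shift of all genes. On leaving out a library the OVA minus CTRL change ran from -0.17 to 0.10 for Pfkfb4, -0.046 to 0.51 for Eno3 and -0.15 to 0.0081 for Hif1a. The OVA/Citra minus OVA change ran from -0.0088 to 0.10 for Slc2a1, -0.065 to 0.035 for Aldoa, -0.18 to 0.089 for Pfkfb4, -0.091 to 0.0085 for Eno1 and -0.0081 to 0.072 for Pgd, and the OVA/Citra minus CTRL change from -0.22 to 0.030 for Pfkfb4.

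With a replicate block the counts were 2 higher and 26 lower (OVA against CTRL), 18 and 3 (OVA/Citra against OVA) and 5 and 24 (OVA/Citra against CTRL); Ldhb became called lower in OVA against CTRL cells (-0.38, limma adjusted p = 0.0455), and no other call among the 33 changed. Over all genes, voom on recovered reads called 4120 higher and 4513 lower, 4394 and 2734, and 4166 and 3083 in the 3 comparisons. Car9, Eno2 and Bhlhe41 rest on few reads. With 3 libraries a group, small differences cannot be told apart.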
